A study of Mus musculus with 13 samples.

Results

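The expression of 10 genes that respond to denervation or act at the neuromuscular junction was followed in the gastrocnemius muscle of 13 mice. They were Chrna1, Chrnb1, Chrnd, Chrne and Chrng, which encode the subunits of the muscle acetylcholine receptor, the receptor kinase gene Musk, the adhesion molecule gene Ncam1, and Myog, Runx1 and Gadd45a, which rise in muscle that has lost its nerve. The genes were chosen by name, as 10 of the 21868 rows of the deposited table. With the exception of Chrng, they reached a mean of at least 10 normalized counts over the 13 mice, as did 12303 genes in total, and 9 of the 10 could therefore be tested.

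The neuromuscular junction is the synapse at which the motor nerve commands the muscle fibre. Agrin from the nerve ending binds LRP4 on the fibre, MuSK is activated, and rapsyn then holds acetylcholine receptors in a dense patch under the nerve. In innervated adult muscle the receptor subunit genes are transcribed mainly by the few nuclei beneath the synapse, electrical activity keeps them low elsewhere along the fibre, and the fetal gamma subunit is replaced by the epsilon subunit. When activity is lost, myogenin rises and binds E-boxes in the receptor promoters, and Musk, Ncam1, Runx1 and Gadd45a are then transcribed along the whole fibre. Chrne is an exception in this family, because its transcription stays largely tied to the synaptic nuclei.

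Promoter stretches of Chrna1, Chrnb1, Chrne and Musk are shown because the results on the receptor turn on these 4 genes and each stretch carries an E-box. They were taken from RefSeq (GRCm38.p6), run 5′ to 3′ on the strand of the gene and end 23 bases before its RefSeq start. Capitals mark the E-boxes CAGCTG and CAGGTG and, in Chrne, the N-box CCGGAA, a motif of genes transcribed by synaptic nuclei.
Chrna1, chr2:73580361-73580488, minus strand: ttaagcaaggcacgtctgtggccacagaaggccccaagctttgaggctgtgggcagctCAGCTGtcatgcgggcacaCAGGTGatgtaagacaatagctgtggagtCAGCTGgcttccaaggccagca
Chrnb1, chr11:69795960-69796057, minus strand: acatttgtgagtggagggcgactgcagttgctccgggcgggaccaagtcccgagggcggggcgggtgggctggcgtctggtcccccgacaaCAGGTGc
Chrne, chr11:70619217-70619344, minus strand: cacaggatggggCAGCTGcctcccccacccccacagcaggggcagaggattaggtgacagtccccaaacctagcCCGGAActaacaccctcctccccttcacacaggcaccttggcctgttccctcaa
Musk, chr4:58285812-58285939, plus strand: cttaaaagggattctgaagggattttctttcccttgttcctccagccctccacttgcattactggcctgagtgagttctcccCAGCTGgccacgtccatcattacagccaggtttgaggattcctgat

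The E-box CAGGTG reads CACCTG on the other strand, and CAGCTG reads the same on both. Only E-boxes of these forms were searched for and marked, and other forms of the general motif CANNTG also occur in the stretches. Of the marked forms, Chrna1 held 3, at 92, 73 and 44 bases before the start. Chrnb1 held CAGGTG at 29 bases and Musk held CAGCTG at 68 bases. In Chrne CAGCTG lay 138 bases and the N-box 76 bases before the start. A RefSeq promoter was at hand for 8 of the 10 genes, and a search of the 250 bases before the start on both strands found CAGCTG in 4 of them, CACCTG in 3 and CCGGAA in 3. CCGGAA was thus not particular to Chrne, as the windows of Runx1 and Gadd45a also held it. The same windows of 32851 RefSeq promoters held CAGCTG in 13%, CACCTG in 17.2% and CCGGAA in 12%. The Myog window held none of these letters. A match is a string of letters and was not measured as a binding site here.

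The mice were male C57BL/6N animals, obtained at 7 weeks of age, made obese on a high-fat diet with 60% of its calories as fat for 15 to 17 weeks and then moved to chow for the treatment period. Over 3 weeks, 5 mice received phosphate-buffered saline (vehicle) with placebo, 5 received semaglutide, an agonist of the GLP-1 receptor used for weight loss, at 30 nM/kg per day intraperitoneally with placebo, and 3 received the same semaglutide together with drinking water that contained a ketone ester (0.114 g/mL). No group received the ketone ester alone, so that its effect without semaglutide was not measured, and all RNA came from whole muscle. Values are normalized counts per gene, with between 15319471 and 23498162 reads counted on genes per mouse. Semaglutide mouse 13 stood apart from its group, with the lowest of the weights that limma gave to the mice (0.232, against 0.389 to 1.61 for the others), and the counts that follow are also given without it. The next lowest weight was that of semaglutide mouse 16. Mouse 13 was singled out from these same data, so the values without it describe how much the results rest on it. They are not independent support.

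Semaglutide-treated mice had more transcript of the alpha and beta receptor subunits, of Runx1 and of Gadd45a than vehicle-treated mice. These 4 rises were 1.76-fold for Chrna1, 1.91-fold for Chrnb1, 1.70-fold for Runx1 and 2.64-fold for Gadd45a, as estimated by limma from log2(normalized count + 1). None of the 9 tested members was called lower. In this comparison 26.5% of all genes tested passed an adjusted p of 0.05, 12.5% by being higher and 13.9% by being lower, beside 4 of 9 members. The median log2 difference of the 9 members was 0.60, against -0.0029 for all 12303 genes. Without mouse 13 the members called numbered 5, with 4 higher and 1, Chrne, lower, beside 37.4% of all genes (17.9% higher and 19.5% lower).

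With the ketone ester added to semaglutide, Chrnb1, Musk and Gadd45a were lower than under semaglutide alone, to 0.603, 0.567 and 0.476 times its level. These 3 of 9 members stood beside 20.7% of all genes tested, 10.7% of them lower, and none of the members was called higher. The median log2 difference was -0.34 for the members and -0.00024 for all genes. Without mouse 13 the count was 5, of which 4 were lower and 1, Chrne, was higher, beside 33.4% of all genes (17.1% lower and 16.4% higher). Against vehicle, semaglutide + ketone ester-treated mice differed in none of the 9 members by limma, edgeR or DESeq2, where 0.366% of all genes passed, while Chrna1 and Musk had unadjusted p-values of 0.0025 and 0.0067. The 3 comparisons share their mice in pairs, and their values are given side by side rather than as independent evidence.

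**Figure D1:**
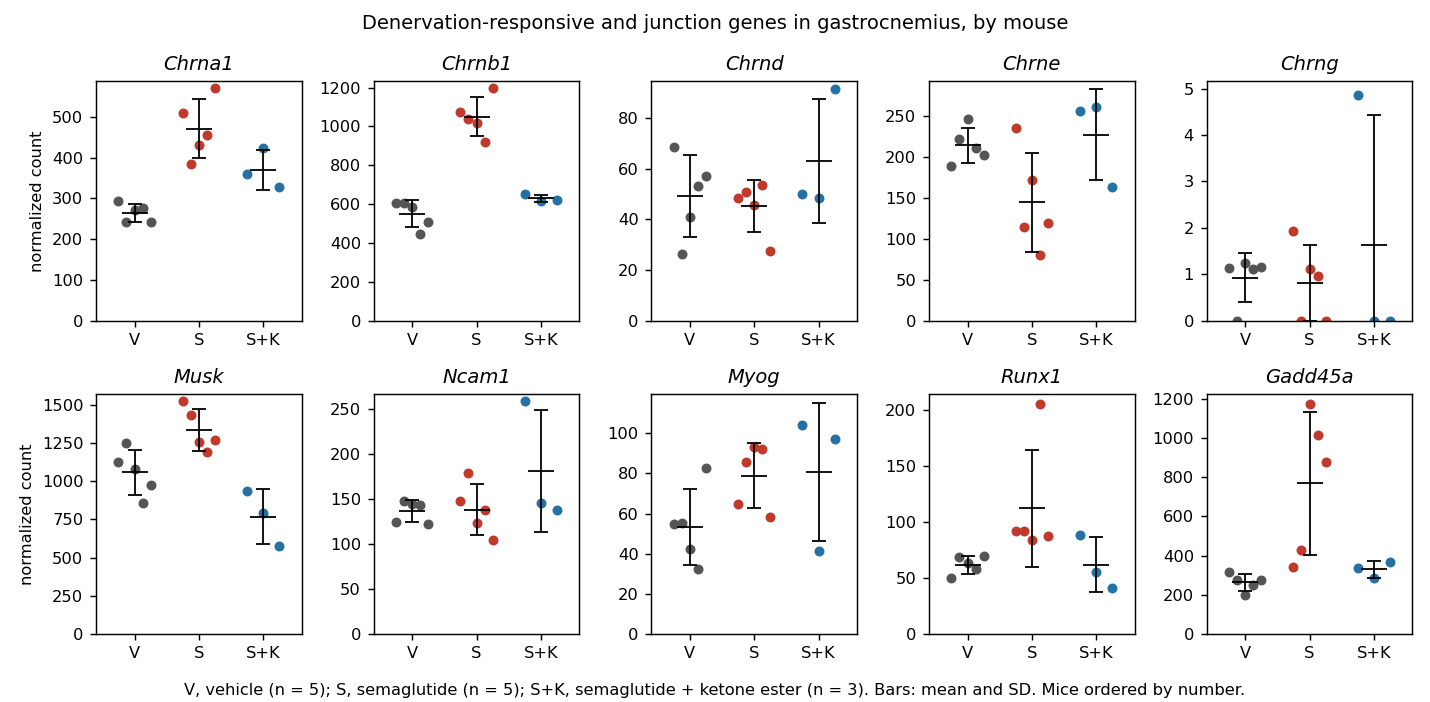
Normalized counts (y axis, linear, from 0) of the 10 genes in each mouse, with V for vehicle, S for semaglutide and S+K for the group that also had the ketone ester. Points are mice, and bars give the mean and SD, cut at 0 for Chrng. The 5 semaglutide-treated mice lie above all 5 vehicle-treated mice for Chrna1, Chrnb1, Runx1 and Gadd45a, and Chrng is at or near 0 throughout.

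The receptor subunits did not move together. Chrna1 encodes the alpha subunit that binds acetylcholine and lies on chromosome 2 from 73563215 to 73580338 (GRCm38). It had 293, 242, 271, 276 and 243 normalized counts in vehicle mice 1 to 5. In semaglutide mice 13 to 17 it had 510, 384, 431, 455 and 571, and in semaglutide + ketone ester mice 19, 21 and 22 it had 360, 423 and 327. Semaglutide-treated mice were higher than vehicle-treated mice without overlap, and the 3 mice that also received the ketone ester lay above all vehicle-treated mice and overlapped the semaglutide-treated mice, of which only mouse 14 (384) lay within their range. The log2 difference of semaglutide from vehicle was 0.81 ± 0.11 (SE), with an adjusted p of 0.00024. For semaglutide + ketone ester against semaglutide it was -0.34 ± 0.13 (adjusted p = 0.076). That difference passed without semaglutide mouse 14 (adjusted p = 0.039), with equal totals (-0.58, adjusted p = 0.0057) and with sample weights (adjusted p = 0.050). Against vehicle it was 0.47 ± 0.13 (adjusted p = 0.16), which passed with sample weights (adjusted p = 0.038) and with the pair of groups fitted alone (0.047).

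Chrnb1, the gene of the beta subunit, lies on chromosome 11 from 69784036 to 69795943. Its normalized counts were 608, 607, 583, 447 and 510 under vehicle, 1072, 1039, 1018, 919 and 1196 under semaglutide, and 652, 616 and 621 with the ketone ester. Every mouse on semaglutide alone was above every mouse of both other groups. The rise under semaglutide was 0.93 ± 0.097 (SE) on the log2 scale, with an adjusted p of 3.7e-05, and the fall with the ketone ester was -0.73 ± 0.11, with an adjusted p of 0.00096. Both calls held in all 11 other settings and in all 13 fits that left out a mouse. The values with the ketone ester stayed just above the highest vehicle-treated mouse, by a log2 difference from vehicle of 0.20 ± 0.11 (adjusted p = 0.58).

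Chrne, which encodes the adult epsilon subunit, lies on chromosome 11 from 70614883 to 70619216. It had 189, 222, 247, 211 and 203 normalized counts under vehicle, 236, 115, 172, 80.6 and 120 under semaglutide, and 257, 262 and 163 under semaglutide + ketone ester. Under semaglutide, 4 of 5 mice lay below all vehicle-treated mice, while mouse 13 was within the vehicle range. The log2 difference from vehicle was -0.65 ± 0.23 (SE; adjusted p = 0.052) and that of semaglutide + ketone ester from semaglutide was 0.71 ± 0.27 (adjusted p = 0.073). Without mouse 13 the values were -0.85 (adjusted p = 0.0029) and 0.91 (adjusted p = 0.0050), and without semaglutide + ketone ester mouse 22 the first had an adjusted p of 0.048. Of 11 other settings, 2 passed for the first, sample weights (adjusted p = 0.0077) and a filter at a mean of 50 (0.048). For the second, 1 passed, sample weights (adjusted p = 0.011). A gene on the opposite strand that overlaps Chrne, 4930544D05Rik, had 0 reads in the 13 mice.

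Set beside Chrna1, Chrne stood in a lower proportion under semaglutide than in the other groups. This ratio was chosen after its values were seen and is given without a test. Chrne counts were 0.645 to 0.915 of the Chrna1 counts in vehicle-treated mice, 0.177 to 0.463 in semaglutide-treated mice, and with the ketone ester added they were 0.5 to 0.716. The range under semaglutide did not overlap either other range, and mouse 13, which had the most Chrne of its group, also had the highest ratio of its group.

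**Figure D2:**
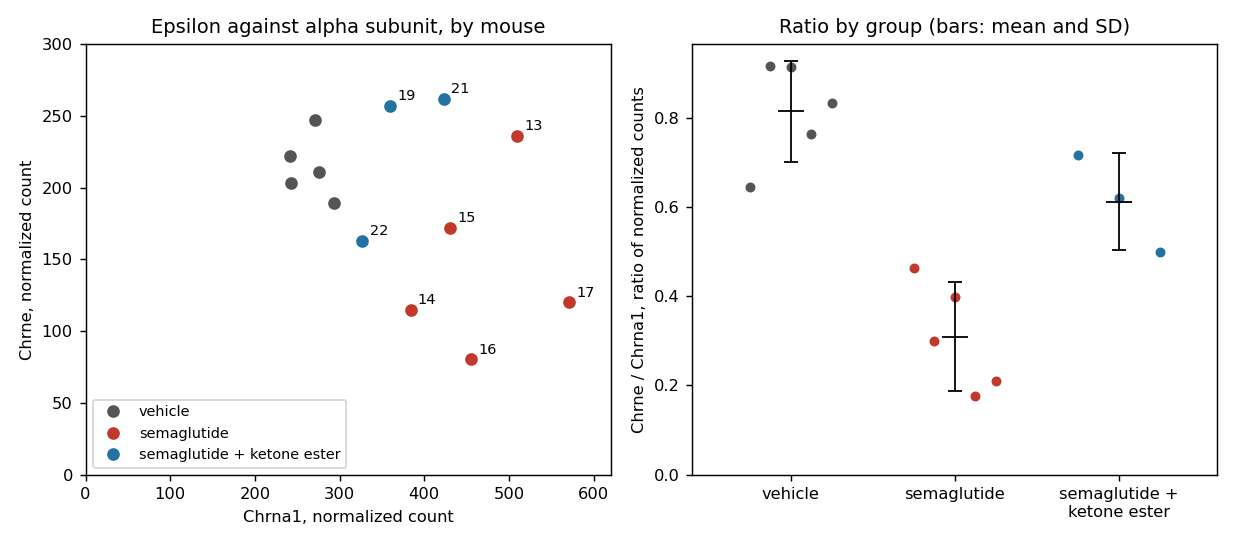
Left, normalized counts of Chrne (y axis) against Chrna1 (x axis), with 1 point per mouse and the numbers of the treated mice. Right, the ratio of the 2 counts by group, with bars for mean and SD. Semaglutide-treated mice lie to the right of the vehicle-treated mice, and their ratios, 0.177 to 0.463, are below those of both other groups.

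Chrng, the fetal gamma subunit gene, lies 4586 bases beyond Chrnd on chromosome 1, from 87204657 to 87212694. Its reads numbered 1, 0, 1, 1 and 1 in vehicle-treated mice, 2, 0, 1, 1 and 0 in semaglutide-treated mice, and 4, 0 and 0 in semaglutide + ketone ester-treated mice. The 12 reads over all mice stood beside 2223 of Chrne, and the epsilon share of the reads of both genes was between 98.1% (95% Wilson interval 95.3% to 99.3%) in mouse 19 and 100% in 5 mice, for which the interval began at 96.4% or higher. No rise of the gamma subunit was detected, with 4 reads in total in each group, and at this depth a small rise could go unseen. An exact permutation test (two-sided) gave p-values of 0.69, 0.75 and 0.75 for semaglutide against vehicle and for semaglutide + ketone ester against semaglutide and vehicle.

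Chrnd, which encodes the delta subunit, lies on chromosome 1 from 87190607 to 87200070. It had 68.7, 26.5, 40.8, 53.2 and 57.1 normalized counts under vehicle, 48.4, 50.7, 45.5, 53.4 and 27.6 under semaglutide, and 49.8, 48.3 and 91.3 under semaglutide + ketone ester. The groups overlapped throughout. The log2 differences were -0.09 ± 0.27 (SE) for semaglutide against vehicle, 0.45 ± 0.31 for semaglutide + ketone ester against semaglutide and 0.36 ± 0.31 against vehicle, with adjusted p-values of 0.84, 0.33 and 0.78.

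Musk encodes the kinase that agrin activates through LRP4, and lies on chromosome 4 from 58285960 to 58374303. Its normalized counts were 1123, 1250, 1079, 859 and 977 under vehicle and 1523, 1433, 1260, 1189 and 1270 under semaglutide. In the mice that also received the ketone ester they were 939, 789 and 576, below every semaglutide-treated mouse and, in 2 of 3 mice, below every vehicle-treated mouse. Musk fell by 0.82 ± 0.15 (SE) on the log2 scale between semaglutide and semaglutide + ketone ester (adjusted p = 0.0025), a call that held in all 11 other settings and without any single mouse. The difference of semaglutide from vehicle was 0.34 ± 0.13 (adjusted p = 0.068). It passed after scaling of every mouse to the same total (0.52, adjusted p = 0.0076), with DESeq2, with the pair of groups fitted alone, and without vehicle mouse 2 or semaglutide + ketone ester mouse 19 or 22 (adjusted p = 0.049, 0.050 and 0.036). Against vehicle, semaglutide + ketone ester differed by -0.48 ± 0.15 (adjusted p = 0.25).

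Ncam1, an adhesion molecule that spreads over the fibre surface after denervation and is also made by Schwann cells and satellite cells, lies on chromosome 9 from 49502136 to 49798925. It had 125, 148, 145, 143 and 122 normalized counts under vehicle, 148, 179, 123, 138 and 104 under semaglutide, and 259, 146 and 138 under semaglutide + ketone ester. The vehicle and semaglutide groups overlapped, and mouse 19 had the highest count of the 13 mice. The log2 difference of semaglutide from vehicle was less than 0.01 in size, with a standard error of 0.18 and an adjusted p of 1. For semaglutide + ketone ester it was 0.35 ± 0.20 against either other group (adjusted p = 0.24 and 0.61). The sum of the 7 Schwann cell markers was 1331 in mouse 19 and 772 to 2613 over the 13 mice, and its part in the Ncam1 values was not tested. In whole muscle, fewer cells of a type and less RNA per cell cannot be told apart.

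Myog encodes myogenin, the transcription factor that acts on the receptor promoters after denervation, and lies on chromosome 1 from 134289989 to 134292548. Its normalized counts were 54.9, 55.4, 42.1, 32.2 and 82.7 under vehicle, 64.8, 85.6, 93.3, 92.3 and 58.2 under semaglutide, and 104, 41.1 and 97.3 under semaglutide + ketone ester. With 3 of 5 semaglutide-treated mice above all vehicle-treated mice, the groups overlapped. The log2 difference was 0.60 ± 0.28 (SE) for semaglutide and 0.55 ± 0.32 for semaglutide + ketone ester against vehicle, with adjusted p-values of 0.13 and 0.62. Between the treated groups it was -0.05 ± 0.32 (adjusted p = 0.93).

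Runx1, a transcription factor that protects denervated fibres from wasting and is also expressed by blood cells, lies on chromosome 16 from 92601466 to 92826149. It had 50.3, 68.6, 63.1, 57.7 and 69.9 normalized counts under vehicle, 91.9, 92.4, 84.4, 206 and 88 under semaglutide, and 88.7, 55.6 and 40.9 under semaglutide + ketone ester. The semaglutide-treated mice were all higher than the vehicle-treated mice, and mouse 16 stood far above the other 4. The log2 difference from vehicle was 0.77 ± 0.25 (SE), with an adjusted p of 0.035. It was 0.53 (adjusted p = 0.060) without mouse 16, and the call was also lost without vehicle mouse 1, 2, 3 or 4 (adjusted p = 0.078, 0.051, 0.060 and 0.071) and without the filter on low values (0.053). The sum of 7 leukocyte markers was 1283 in mouse 16 and 231 to 743 in the other mice, with 185 normalized counts of Ptprc (CD45) in mouse 16, and its part in the Runx1 value was not tested. For semaglutide + ketone ester against semaglutide the difference was -0.83 ± 0.29 (adjusted p = 0.054), which passed without mouse 13 (adjusted p = 0.036), without mouse 19 (adjusted p = 0.024) and in 4 of 11 other settings, namely equal totals, quantile normalization, DESeq2 and sample weights (adjusted p of 0.022 to 0.038).

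Gadd45a, a stress gene that is induced by denervation and remodels chromatin in the fibre's nuclei, lies on chromosome 6 from 67035096 to 67037457. Its normalized counts were 316, 274, 200, 252 and 275 under vehicle, 344, 427, 1176, 1018 and 878 under semaglutide, and 334, 284 and 369 under semaglutide + ketone ester. All semaglutide-treated mice exceeded all vehicle-treated mice, but mice 15, 16 and 17 formed a high set apart from mice 13 and 14. The rise was 1.40 ± 0.29 (SE) on the log2 scale, with an adjusted p of 0.0032, and held in all 11 other settings and without any single mouse. With the ketone ester, Gadd45a fell by 1.07 ± 0.33 (adjusted p = 0.034). That call was lost without semaglutide mouse 15, 16 or 17 or semaglutide + ketone ester mouse 19, 21 or 22, with adjusted p-values of 0.067 to 0.13, when the pair of groups was fitted alone (0.098) and when limma was run without a variance trend (0.053).

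**Figure D3:**
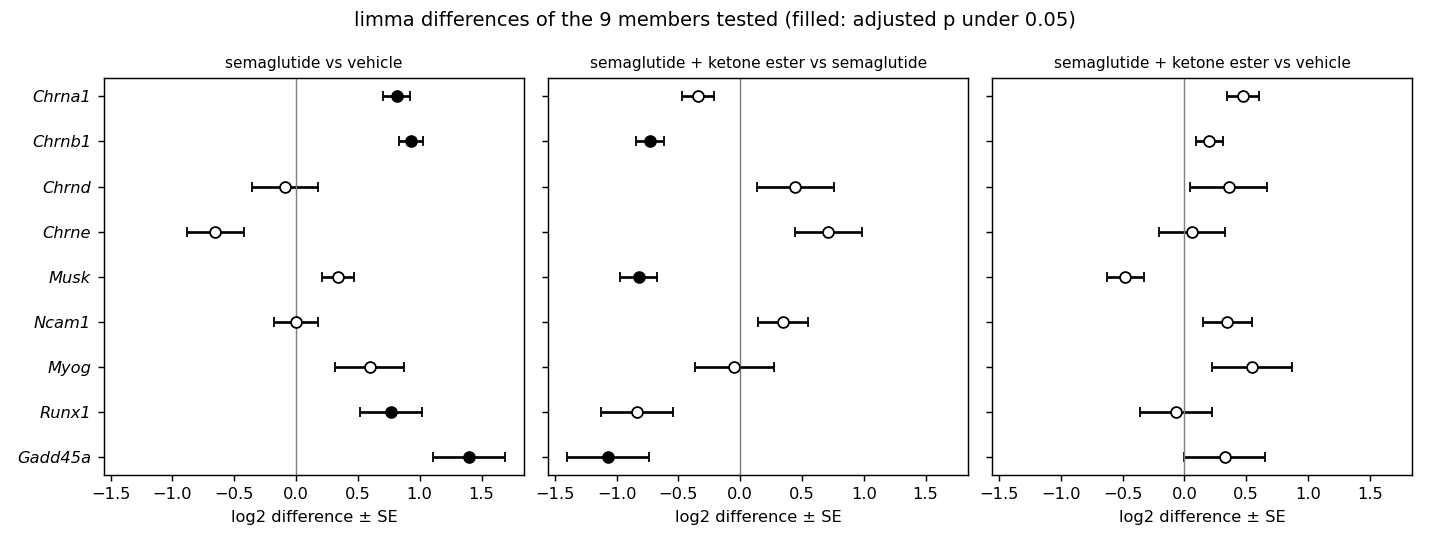
Differences in log2(normalized count + 1) with their standard errors from limma (x axis) for the 9 members tested (y axis), in 3 panels for the 3 pairs of groups. Filled points had an adjusted p under 0.05, which are 4 genes to the right of 0 in the first panel, 3 to the left of 0 in the second and none in the third.

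By the criterion of the study (an unadjusted p under 0.05 over the 3 groups, with at least a 1.5-fold span between the group means), Chrna1, Chrnb1, Musk and Gadd45a were altered. These 4 of 9 members stood beside 16.1% of all genes tested. Runx1 had means 1.82-fold apart with a p of 0.085, and Chrne 1.57-fold apart with a p of 0.059. Groups did not overlap for 4 members between semaglutide and vehicle, for 2 (Chrnb1 and Musk) between the treated groups, and for 2 (Chrna1 and Chrnb1, both higher) between semaglutide + ketone ester and vehicle, where 14.7%, 20.1% and 11.3% of all genes did not overlap.

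Per length, Musk and Chrnb1 were the most abundant of the 10 transcripts. In vehicle-treated mice the mean level in RPKM (reads per kilobase of exons, scaled for library size) was 14.5 for Musk, 11.2 for Chrnb1, 7.72 for Gadd45a, 6.56 for Chrne and 3.13 for Chrna1. It was 1.85 for Myog, 0.815 for Ncam1, 0.777 for Chrnd, 0.266 for Runx1 and 0.0116 for Chrng. The order was the same when the length of the longest coding transcript was used. Under semaglutide, the means of Gadd45a (25.8, SD 12.9) and Chrnb1 (24.1, SD 1.76) were above that of Musk (20.6, SD 1.73). The mean of Chrna1 (6.27, SD 1.02) was above that of Chrne (4.91, SD 1.83). The place of Gadd45a rests on mice 15, 16 and 17, as its counts in mice 13 and 14 were far lower.

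The other genes of the junction and of the response to denervation were counted in lists chosen by name, to be read against the 26.5% of all genes called under semaglutide and the 20.7% called with the ketone ester (37.4% and 33.4% without mouse 13). Of 12 genes of the agrin and MuSK pathway, Rapsn, whose product rapsyn clusters the receptor, was called higher under semaglutide and none was called lower. Rapsn had 394 to 420 normalized counts under vehicle, 434 to 640 under semaglutide and 350 to 411 with the ketone ester, and the semaglutide group lay above both others without overlap. It rose by 0.38 ± 0.095 (SE) on the log2 scale (adjusted p = 0.010) and fell by 0.49 ± 0.11 with the ketone ester (adjusted p = 0.0069). The median log2 difference of these 12 genes under semaglutide was 0.01, and without mouse 13 the calls numbered 2 higher and 2 lower.

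Of 7 genes of the synaptic cleft and basal lamina, 4 were called lower and none higher under semaglutide, with a median log2 difference of -0.52, while Lama5 (0.21), Lamb2 (-0.24) and Col13a1 (-0.39) did not pass. Ache, which encodes acetylcholinesterase, had 672, 696, 803, 762 and 572 normalized counts under vehicle, 952, 403, 403, 166 and 270 under semaglutide, and 849, 959 and 875 under semaglutide + ketone ester. Mouse 13 was as high as the mice given the ketone ester, while the other 4 semaglutide-treated mice lay below all others. The fall was -0.91 ± 0.32 (SE; adjusted p = 0.049), and the rise with the ketone ester was 1.27 ± 0.37 (adjusted p = 0.027). Colq, the collagen tail that anchors the esterase, changed by -0.64 ± 0.20 (adjusted p = 0.032) and 0.71 ± 0.23 (adjusted p = 0.045). The laminin gene Lama4 and the nidogen gene Nid2 fell likewise, by 0.52 ± 0.13 and 0.67 ± 0.14, and 5 of the 7 genes, now with Lamb2, rose with the ketone ester. Without mouse 13 the counts were 5 lower and 1, Lama5, higher under semaglutide, and 5 higher and 1, Lama5, lower with the ketone ester.

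Beside the cleft genes, the sum of 4 fibro-adipogenic cell markers was 4924 to 11241 under vehicle, 4490 to 6032 under semaglutide and 6253 to 10496 under semaglutide + ketone ester, with Col1a1, Col3a1 and Pdgfra called lower under semaglutide. Its part in the laminin and nidogen values was not tested. Of the neuregulin and synaptic nucleus genes, 7 of 9 could be tested, and Etv5, an ETS factor of synaptic nuclei, rose under semaglutide by 0.35 ± 0.12 (adjusted p = 0.039), with 337 normalized counts in mouse 13 and 214 to 249 in the other 4. Without mouse 13 it did not pass (adjusted p = 0.052), and Ufsp1 was the called gene of the list, lower than under vehicle (-0.86 ± 0.15, adjusted p = 0.00037). Ufsp1 begins 162 bases beyond the end of Ache on the same strand, and whether Ache transcripts contributed to its reads was not tested. It had 182 to 259 normalized counts under vehicle and 279 to 300 under semaglutide + ketone ester. Under semaglutide Ufsp1 had 298 in mouse 13 and 81.6 to 134 in the other 4 mice, and it rose with the ketone ester by 1.02 ± 0.28 (adjusted p = 0.020).

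Among 12 regulators that link activity to the receptor genes, Myod1 rose under semaglutide and 3 fell, with a median log2 difference of 0.10. Myod1, which binds the same E-boxes as myogenin, had 129 to 224 normalized counts under vehicle, 393 to 942 under semaglutide and 213 to 403 under semaglutide + ketone ester. It rose by 1.61 ± 0.23 (SE; adjusted p = 0.00031) and fell by 0.85 ± 0.27 with the ketone ester (adjusted p = 0.035). Hdac9 and Dach2 encode repressors of the receptor and myogenin genes that decline after denervation. Hdac9 fell by 1.07 ± 0.18 (adjusted p = 0.00083), from 124 to 154 under vehicle to 44.4 to 96.1, without overlap, and rose by 1.20 ± 0.21 with the ketone ester (adjusted p = 0.0016). Dach2 fell by 0.89 ± 0.23 (adjusted p = 0.012), and the muscle transcription factor Mef2c by 0.90 ± 0.20 (adjusted p = 0.0053). With the ketone ester Mef2c rose by 0.85 ± 0.23 (adjusted p = 0.019), and the deacetylase gene Hdac4, which represses Dach2 and is induced by denervation, fell by 0.57 ± 0.19 (adjusted p = 0.041). Without mouse 13 the list had 4 higher and 3 lower under semaglutide, and 2 higher and 5 lower with the ketone ester.

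**Figure D4:**
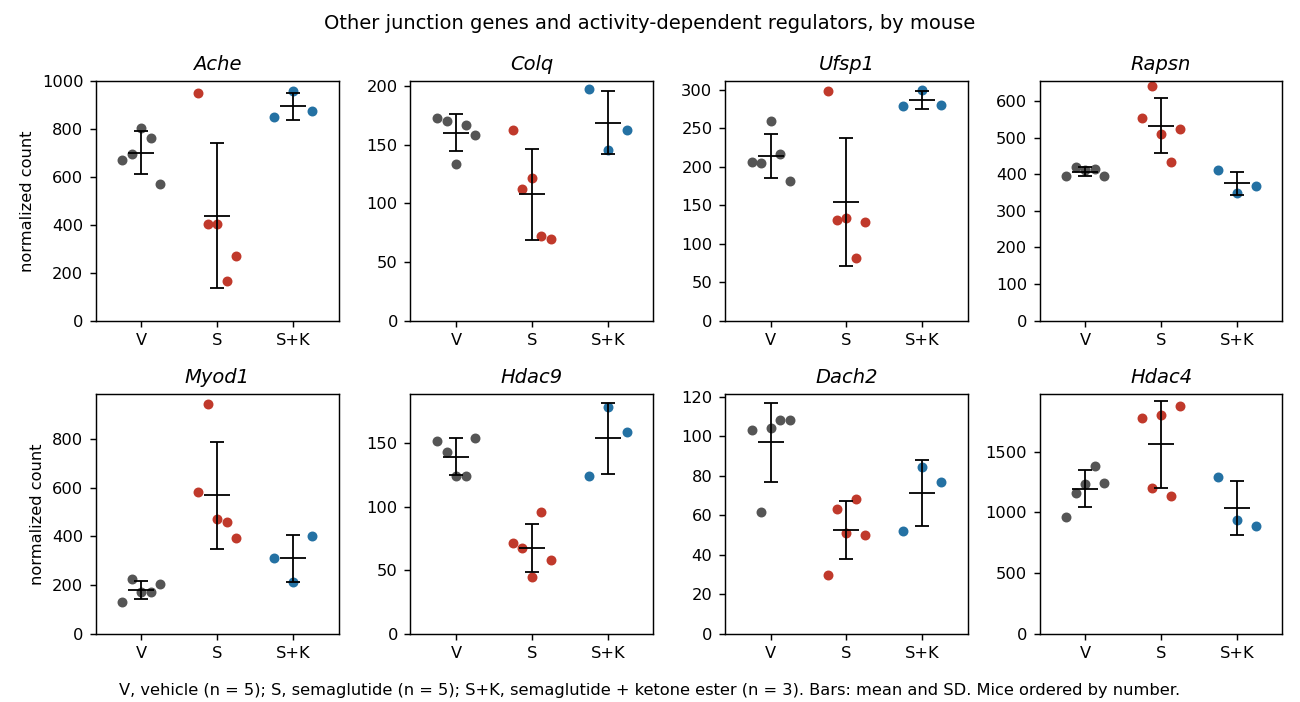
Normalized counts (y axis, linear, from 0) of 4 junction genes (top) and 4 activity-dependent regulators (bottom) in each mouse, where V is vehicle, S is semaglutide and S+K is the group that also had the ketone ester, with mean and SD. For Ache and Ufsp1, semaglutide mouse 13 lies with the S+K mice and the other 4 semaglutide-treated mice lie below all other mice, while for Hdac9 and Rapsn the semaglutide group overlaps neither other group.

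Other genes that rise in denervated muscle were split. Of 17 tested, 5 rose and 2 fell under semaglutide, with a median log2 difference of 0.17. The rises were those of Sln (sarcolipin, a regulator of the calcium pump; 3.15 ± 0.44, adjusted p = 0.00025), the cell cycle inhibitor Cdkn1a (1.60 ± 0.39, adjusted p = 0.0081), the TWEAK receptor Tnfrsf12a (1.34 ± 0.39, adjusted p = 0.020), Ankrd1 (1.44 ± 0.42, adjusted p = 0.023) and the ectodysplasin receptor Eda2r (1.68 ± 0.51, adjusted p = 0.027). The developmental myosins Myh3 and Myh8 fell, by 0.35 ± 0.12 and 0.38 ± 0.12. With the ketone ester Tnfrsf12a fell by 3.03 ± 0.45 (adjusted p = 0.00077) and Cdkn1a by 2.02 ± 0.45 (adjusted p = 0.0067). In the same comparison Actc1, the cardiac actin of developing muscle, rose by 5.20 ± 0.89 (adjusted p = 0.0017), Mybph by 2.26 ± 0.46 (adjusted p = 0.0042), and Myh3 and Myh8 by 0.66 ± 0.14 and 0.78 ± 0.14. Actc1 had 2910 normalized counts in mouse 19 and 37383 and 49782 in mice 21 and 22, against 185 to 2709 in the 10 other mice. Without mouse 13 the list had 7 higher and 4 lower under semaglutide, and 4 higher and 7 lower with the ketone ester.

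The high set of Gadd45a mice was seen again in Fbxo32, the gene of the ubiquitin ligase atrogin-1, which is named here after its values were seen. Fbxo32 had 1460 normalized counts in mouse 13, 12699 in mouse 14 and 29676 to 31652 in mice 15 to 17, against 6730 to 7444 under vehicle and 3567 to 5372 under semaglutide + ketone ester. Its log2 difference of 1.00 ± 0.64 from vehicle did not pass (adjusted p = 0.27), and without mouse 13 it was 1.81 ± 0.22 (adjusted p = 2.7e-05). Among the relatives of Gadd45a and Runx1, Gadd45b rose under semaglutide by 0.63 ± 0.20 (adjusted p = 0.033) and Map3k4, the kinase that GADD45 proteins activate, fell with the ketone ester by 0.35 ± 0.12 (adjusted p = 0.044). Against vehicle, semaglutide + ketone ester-treated mice had 0 calls by limma in each of these 6 lists. Without mouse 13, which is in neither group but enters the shared spread, Actc1 (3.75 ± 0.71, adjusted p = 0.020), Mybph (1.70 ± 0.31, adjusted p = 0.016) and Gadd45b (0.98 ± 0.14, adjusted p = 0.0052) were higher than under vehicle, beside 1.07% of all genes (0.398% higher and 0.674% lower).

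The defining markers placed the samples in muscle. The sum of 6 fibre markers (Ckm, Acta1, Myh4, Myh1, Tnnt3 and Mylpf) was 2286858 to 2801938 normalized counts under vehicle, 1416146 to 2569806 under semaglutide and 2946479 to 3547902 under semaglutide + ketone ester. In the last group it was above that of all other mice, with Acta1, Myh4 and Mylpf called higher than under semaglutide. Of 4 motor neuron markers, Chat, Mnx1 and Slc18a3 were at 0 reads in every mouse. Isl1 had 0 to 12 normalized counts, with means of 6.08 under vehicle, 4.46 under semaglutide and 2.42 under semaglutide + ketone ester, too low to be tested. Satellite cell markers summed to 594 to 733 under vehicle, 730 to 1346 under semaglutide and 595 to 652 under semaglutide + ketone ester. Cdh15 was the called gene among them, with 1.15 ± 0.18 (SE) under semaglutide and -1.20 ± 0.21 with the ketone ester, while the differences under semaglutide of the other 4 tested, Pax7 (-0.19), Myf5 (-0.01), Chodl (-0.47) and Fgfr4 (-0.30), were at or below 0 and did not pass. None of the 6 fibre, 7 Schwann cell, 6 leukocyte and 4 endothelial markers tested was called under semaglutide. Without mouse 13 the endothelial gene Kdr was lower than under vehicle (-0.27, adjusted p = 0.041). So were the fibre markers Acta1 (-0.596, adjusted p = 0.025), Myh4 (-0.773, adjusted p = 0.02) and Mylpf (-0.765, adjusted p = 0.0033), beside 37.4% of all genes called. Ckm (-0.176), Tnnt3 (-0.315) and Myh1 (0.41) did not pass in that fit. With the ketone ester the endothelial genes Kdr (0.41, adjusted p = 0.019) and Cdh5 (0.31, adjusted p = 0.034) were higher than under semaglutide alone. The part of the cell types in the values of the 10 genes was not tested.

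Genes whose levels over the 13 mice were most like those of the called members were sought among 8727 genes with a mean of at least 100. For Chrnb1 they included the ribosomal protein genes Rpl6 and Rpl30, with Pearson r of 0.976 and 0.975. For Chrna1 they were Rps26, Nop56 and Ocrl (0.923, 0.918 and 0.903). For Musk they were Mtss1l, Ranbp3 and Galnt2 (0.956, 0.943 and 0.936), for Runx1 Cdk9, Zim1 and Slc36a1 (0.913, 0.891 and 0.878), and for Gadd45a the cathepsin L gene Ctsl, Napb and Cnppd1 (0.964, 0.951 and 0.951). The rank correlation (Spearman rho) was 0.912, 0.626 and 0.687 for the Runx1 genes and 0.797, 0.835 and 0.753 for the Gadd45a genes. For the genes named with Chrna1, Chrnb1 and Musk it was 0.846 to 0.956. These values describe 13 mice in 3 groups that share the group differences and the scaling, and the best of many genes was taken.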

How the data were processed

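The authors extracted total RNA with TRIzol from frozen gastrocnemius, made stranded mRNA libraries and aligned paired-end reads to mm10 with DRAGEN. They deposited normalized counts per gene, a scaled signal, for 13 mice. DESeq2 is named in the submitters' processing notes without its role, and the counting program, gene annotation, use of strand and normalization method are not given in the sources used here. Within a tolerance of 0.01, every value was a whole multiple of a step per mouse, so that whole reads could be recovered. Groups came from the treatment labels. All mice carry the same batch label, and nothing pairs mice between groups.

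For genes with a mean of at least 10, log2(normalized count + 1) was tested with limma 3.58.1 in R 4.3.3 (3 groups in a single model, variance trend) with Benjamini-Hochberg adjustment over 12303 genes and a threshold of 0.05. Fold changes on this scale understate those of low genes. The group means of each member were also compared by two-sided exact permutation tests (scipy 1.17.1), of which those of Chrng are given. Such p-values cannot go below 0.0079 for 5 against 5 mice or 0.036 for 3 against 5. Alternatives were other pseudocounts, filters and scalings, sample weights, the pair of groups alone, edgeR 4.0.16 and DESeq2 1.42.0 on the recovered reads, leaving out each mouse and, added after the data were seen, limma without the trend. The fit was also tested on simulated counts. In these, all mice of a group shared the same mean per gene apart from library size. The simulation held no mouse that stood apart from its group, so it does not cover that case. Wilson intervals cover counting error only. Coordinates are from GENCODE M21 (GRCm38).

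Named were all 10 members, from each list and comparison up to 5 called genes by smallest p, and the 3 genes most like each called member; some genes that this rule names are not reported here. The members and lists were chosen with earlier results of these data known.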

Additional observations from a re-analysis of the deposited data

Results flagged for a closer look

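Runx1 in semaglutide mouse 16 lay far from the other 4 mice of its group, at 206 normalized counts against 84.4 to 92.4. The gap to the nearest mouse made up 0.934 of the range of the group. That mouse also had the highest sum of leukocyte markers, 1283, as given above with the value of Runx1.

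Chrng in vehicle mouse 2 was at 0 while the other 4 vehicle-treated mice had 1 read each. The gap was 0.896 of the range, and it is a difference of 1 read. In total 20 groups of 5 mice were examined in this way, and 2 stood out. About 1 in 20 such groups would do so by chance.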

How the results depend on the processing

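The calls of Chrna1, Chrnb1 and Gadd45a under semaglutide and of Chrnb1 and Musk with the ketone ester kept their direction and side of the threshold under all 11 other settings and without each mouse. Leaving out each mouse gave 3 to 6 called members for semaglutide against vehicle, 2 to 5 for semaglutide + ketone ester against semaglutide, 0 to 0 for semaglutide + ketone ester against vehicle, and 4 to 5 altered by the criterion of the study. The share of all genes called also moved between fits, from 26.5% to 37.4% without mouse 13 for semaglutide against vehicle. Between the treated groups it went from 20.7% to 33.4% without that mouse. In the latter comparison equal totals gave 5 called members, beside 4352 of 12303 genes, and sample weights gave 6. For the other fits the member counts are given without that share and are not read as a result about the members. Against vehicle, sample weights and the pair of groups alone each gave 1 for semaglutide + ketone ester, Chrna1, with adjusted p-values of 0.038 and 0.047.

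Equal totals moved the median log2 difference of all genes to 0.17 for semaglutide against vehicle and -0.23 for semaglutide + ketone ester against semaglutide, with 3351 genes higher and 985 lower in the first (1540 and 1715 as deposited) and 637 higher and 3715 lower in the second (1234 and 1312). In the first, the differences of Chrna1, Chrnb1, Musk, Runx1 and Gadd45a were above that median.

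Differences near 0 changed sign, always without a call. For semaglutide against vehicle, Chrnd became 0.081 with equal totals and 0.0040 with quantile normalization, and Ncam1 -2.7e-05 with a pseudocount of 0.5 and -0.13 with sample weights. Myog between the treated groups became 0.044 with edgeR and 0.042 with DESeq2. For semaglutide + ketone ester against vehicle, Chrne became -0.0015 with equal totals and Runx1 0.0083 with edgeR and 0.00049 with DESeq2. Leaving out single mice also changed the sign of these differences, to 0.046 and 0.074 for Chrnd (without mouse 1 or 17), to -0.031, -0.039, -0.030, -0.098 and -0.0045 for Ncam1 (1, 5, 13, 14 or 16), to 0.018, 0.014 and 0.38 for Myog (15, 16 or 21), to -0.043 and -0.056 for Chrne (19 or 21) and to 0.19 for Runx1 (22). The cause was not tested.

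The ketone ester group had 3 mice. Chrng, with 0 to 4 reads per mouse, is limited by depth.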
